A study of Mus musculus with 6 samples.

Results

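Aggrecan and versican are the large hyaluronan-binding proteoglycans of the extracellular matrix, and ADAMTS proteases cut their core proteins. Here 7 genes of this system, *Acan*, *Vcan*, *Hapln1*, *Adamts1*, *Adamts5*, *Adamts9* and *Adamts19*, of the 26251 genes listed in single cell mRNA sequencing of mouse fetal gonads, were followed through every cell type and group. They were chosen by symbol, with results of these data known, for whether they moved the same way or opposite ways in the supporting and the interstitial cells of the dKO gonad. Their values in that contrast are therefore a description, and no p is given for them there.

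Gonads were taken from mouse embryos at E15.5, in 3 groups with 2 libraries each. Control XY gonads are testes that carry intact *Amh* and *Inhbb* (Amh+/+; Inhbb+/+). dKO XY gonads, titled dKO testis, are labelled as homozygous for the knockout alleles of both genes (Amh-/-; Inhbb-/-). The study describes them at E15.5 as ovotestes, with ovarian domains at the poles and a feminized part of the supporting cells. Control XX gonads are ovaries with intact copies (Amh+/+; Inhbb+/+). *Amh* encodes anti-Müllerian hormone and *Inhbb* the subunit of activin B, both secreted ligands of the TGF-beta family. The deletions are of the germline and so in every cell, so a difference in a cell type need not start there. Gonads of the same animal were pooled and dissociated, and the suspension was frozen until the genotype was known; how many animals made up a library is not given in the sources used here.

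The 6 libraries gave 39350 cells after the filter of the study, between 4781 and 8569 per library, with median depths of 18415 to 27124 UMIs (unique molecular identifiers, 1 per captured mRNA molecule). Supporting cells of the control XY libraries had 2045 and 1905 UMIs of *Amh* per 1000000 UMIs (CPM) against 18.3 and 15.7 in dKO XY. *Inhbb* stood at 162 and 185 CPM in control XY, 42.4 and 51.5 CPM in dKO XY and 37.3 and 25.4 CPM in control XX, so *Inhbb* reads remained in dKO XY at a level above that of the intact ovary. Whether these reads lie in the deleted part of the gene is not given in the sources used here, so *Inhbb* checks the labels by its lower level alone. The barcodes with a mitochondrial share of 25% or more, all removed, made up 24.4% and 28.3% of the dKO XY libraries and 2.22% to 9.35% of the others. Libraries shared between 4 and 25 cell barcodes. With 2 libraries per group, an exact two-sided permutation test of a single gene cannot give a p below 0.333, and the tests are from edgeR over all genes, with DESeq2 named where it is used.

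Lecticans such as aggrecan and versican carry chondroitin sulphate chains and bind hyaluronan through their N-terminal end, and link proteins such as HAPLN1 lock that bond. ADAMTS1, ADAMTS5 and ADAMTS9 are secreted metalloproteases that cleave versican and aggrecan within the core protein. ADAMTS5 is the main aggrecanase of mouse cartilage and ADAMTS1 is best known in the gonad for cleaving versican around the ovulating oocyte. ADAMTS19 has no established substrate, and its gene is known as one of those with higher expression in the fetal ovary than in the testis. In the fetal testis, Sertoli cells form cords within an interstitium of stromal and Leydig cells, while the fetal ovary keeps its granulosa cells in loose nests.

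Positions were taken by symbol from GENCODE M21, on GRCm38. *Acan* spans chr7:79053483-79115099 on the plus strand. *Vcan* (chr13:89655312-89742509, minus strand) and *Hapln1* (chr13:89539796-89611652, plus strand) are neighbours, 43.7 kb apart with 0 protein-coding genes between them. *Adamts1* (chr16:85793827-85803113) and *Adamts5* (chr16:85856173-85901828) are neighbours as well, 53.1 kb apart, both on the minus strand and with 0 protein-coding genes between. *Adamts9* spans chr6:92772699-92943492 on the minus strand. *Vcan*, *Hapln1* and *Adamts9* overlap annotated genes of the opposite strand, and whether the counting used strand is not given in the sources used here, so reads of these overlaps cannot be told apart with certainty. *Acan* and *Hapln3*, another link protein gene, on the minus strand, run towards each other and their ends are 0.002 kb apart, so the same doubt holds for *Acan*. *Hapln3* lay between 10.2 and 10.3 CPM in control XY interstitial cells, between 14.2 and 15.7 CPM in dKO XY and at a mean of 3.76 CPM in control XX, the same order of groups as *Acan*, and was called higher in dKO XY (0.54 ± 0.11, adjusted p = 0.0279). In supporting cells it lay between 1.24 and 1.46 CPM in control XY, between 1.87 and 1.92 CPM in dKO XY and between 0.328 and 0.399 CPM in control XX. Its part in the *Acan* values was not tested. A 10x count reads 1 end of the transcript and these values are per total UMIs and not per length, so levels are compared between samples and cell types and not between genes.

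The 250 bases before the RefSeq start of *Acan* and of *Vcan*, the proteoglycans on which the results turn, are shown 5′ to 3′ in the direction of the gene (RefSeq, GRCm38.p6). That of *Acan* lies at chr7:79052976-79053225 on the plus strand and that of *Vcan* at chr13:89742513-89742762 on the minus strand. Capitals mark CCGCCC, the letters bound by SP1-type factors, on either strand.
Acan: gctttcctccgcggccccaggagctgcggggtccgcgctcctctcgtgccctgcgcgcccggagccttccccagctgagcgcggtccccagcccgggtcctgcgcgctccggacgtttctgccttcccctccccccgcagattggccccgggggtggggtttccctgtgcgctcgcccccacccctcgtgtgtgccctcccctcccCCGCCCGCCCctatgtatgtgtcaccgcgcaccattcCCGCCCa
Vcan: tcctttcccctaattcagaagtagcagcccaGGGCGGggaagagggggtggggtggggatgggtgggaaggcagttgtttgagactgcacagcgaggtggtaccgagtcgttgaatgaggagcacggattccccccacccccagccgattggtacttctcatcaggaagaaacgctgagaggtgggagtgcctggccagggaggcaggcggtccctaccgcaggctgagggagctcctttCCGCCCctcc
*Acan* held 3 such matches, 2 of which overlap, in a window of 74.4% GC, and *Vcan* held 2 in a window of 62.4% GC. CCGCCC was found in 32.7% of the 32851 promoter windows of this length. Neither window held CAGAC (the SMAD box, in 42.2% of the windows), AACAAT (SOX, 9.42%), GTAAACA (forkhead, 3.17%) or CAAGGTCA (SF1, 1.33%) on either strand. Of the 5 members with an entry in the table, *Hapln1* held 1 CAGAC, *Adamts1* 3 CCGCCC and *Adamts9* 1 CCGCCC. A match is a description of the letters, and no match says only that they are not in this window.

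Each value is the sum of a gene's UMIs over the cells of a type in a library, and libraries, not cells, are the replicates. Supporting cells are the Sertoli-like cluster, the granulosa-like cluster and a further supporting cluster led by *Krt79*, *Rhox8* and *Rspo1*. The further cluster was also named granulosa by the marker lists, with 5 of 11 markers passing. In the cluster called granulosa-like here, 11 of 11 passed. Control XY gave 259 and 539 supporting cells, dKO XY 1260 and 922, and control XX 2995 and 1186. Control XY put 15 and 19 cells into the further cluster, dKO XY 432 and 440, and control XX 3 and 5. Interstitial cells numbered 5306 and 6325 for control XY, 4761 and 2942 for dKO XY, and 1545 and 2950 for control XX, in 3 clusters, of which the one led by *Il33* and *Gdf10* held nearly all interstitial cells of control XX and few of control XY. Fewer cells of a subtype and less mRNA per cell cannot be told apart in such sums, so values within clusters are given where they differ.

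*Acan* was a low gene with a large contrast between groups. In interstitial cells it stood at 1.14 and 1.77 CPM in control XY, 6.46 and 7.93 CPM in dKO XY and 0.643 and 0.362 CPM in control XX. Behind these values are 145 and 237 *Acan* UMIs for control XY, 717 and 716 for dKO XY, and 23 and 24 for control XX. Both dKO XY libraries lay above all 4 control libraries. The log2 fold change of dKO XY over control XY was 2.29 ± 0.26 (SE, n = 2 per group). Supporting cells ran the other way, with 2.97 and 3.74 CPM of *Acan* in control XY, 1.48 and 1.25 CPM in dKO XY and 4.45 and 3.99 CPM in control XX. Both dKO XY libraries were the lowest of the 6, and the log2 fold change was -1.31 ± 0.27 (SE). A similar low level of *Acan* was counted in dKO XY in cell types with almost none in control XY. Endothelial cells of dKO XY had between 0.897 and 1.58 CPM (22 UMIs in all), against 0 and 0.144 CPM in control XY. Epithelial cells had between 0.936 and 1.56 CPM (18 UMIs) and immune cells between 0.694 and 0.956 CPM (7 UMIs), where both control XY libraries of each type had 0 UMIs. The part of such counts in the supporting level of dKO XY was not tested. The change in supporting cells minus that in interstitial cells was -3.60 ± 0.29 on the log2 scale, the largest such difference in size among the members.

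The higher interstitial level of *Acan* was not seen in all 3 clusters. In the cluster led by *Sostdc1*, *Adamts5* and *Cxcl12* the levels were 0.853 and 1.44 CPM in control XY and 5.85 and 6.29 CPM in dKO XY. In the cycling cluster they were 1.58 and 2.14 CPM against 8.48 and 9.69 CPM. In the *Il33* cluster they were 0.449 and 1.72 CPM against 0.619 and 0.911 CPM, where the groups overlapped. In supporting cells the Sertoli-like cluster showed the lower level, at 3.04 and 3.84 CPM in control XY against 1.30 and 1.04 CPM in dKO XY, and control XY had too few cells or *Acan* UMIs in the other supporting clusters for a comparison.

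The share of interstitial cells with at least 1 *Acan* UMI was 2.11% and 2.97% in control XY and 9.85% and 13.4% in dKO XY. With every cell thinned to 5000 UMIs, which left out 0 cells, the shares were 0.452% (95% exact interval 0.290% to 0.672%) and 0.696% (0.506% to 0.933%) against 2.94% (2.48% to 3.46%) and 2.89% (2.31% to 3.56%). Immune cells, which should lack aggrecan, had a thinned share of 0.546% and 0% in dKO XY, at median depths of 23860 and 24000 UMIs against 19530 and 23650 in the interstitial cells of the same libraries. Intervals cover counting error only. Since *Acan* marks cartilage, the other cartilage markers were read beside it. The 8 of 9 listed markers present in the data summed in interstitial cells to 34.6 and 38.8 CPM in control XY, 36.1 and 28.3 CPM in dKO XY and 81.4 and 89.4 CPM in control XX. Such a sum can be led by its most abundant genes, and the part of cartilage cells in the *Acan* values was not tested. Leydig markers in interstitial cells summed to 486 and 428 CPM in control XY and 555 and 801 CPM in dKO XY; their part in the *Acan* values was not tested.

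**Figure D1:**
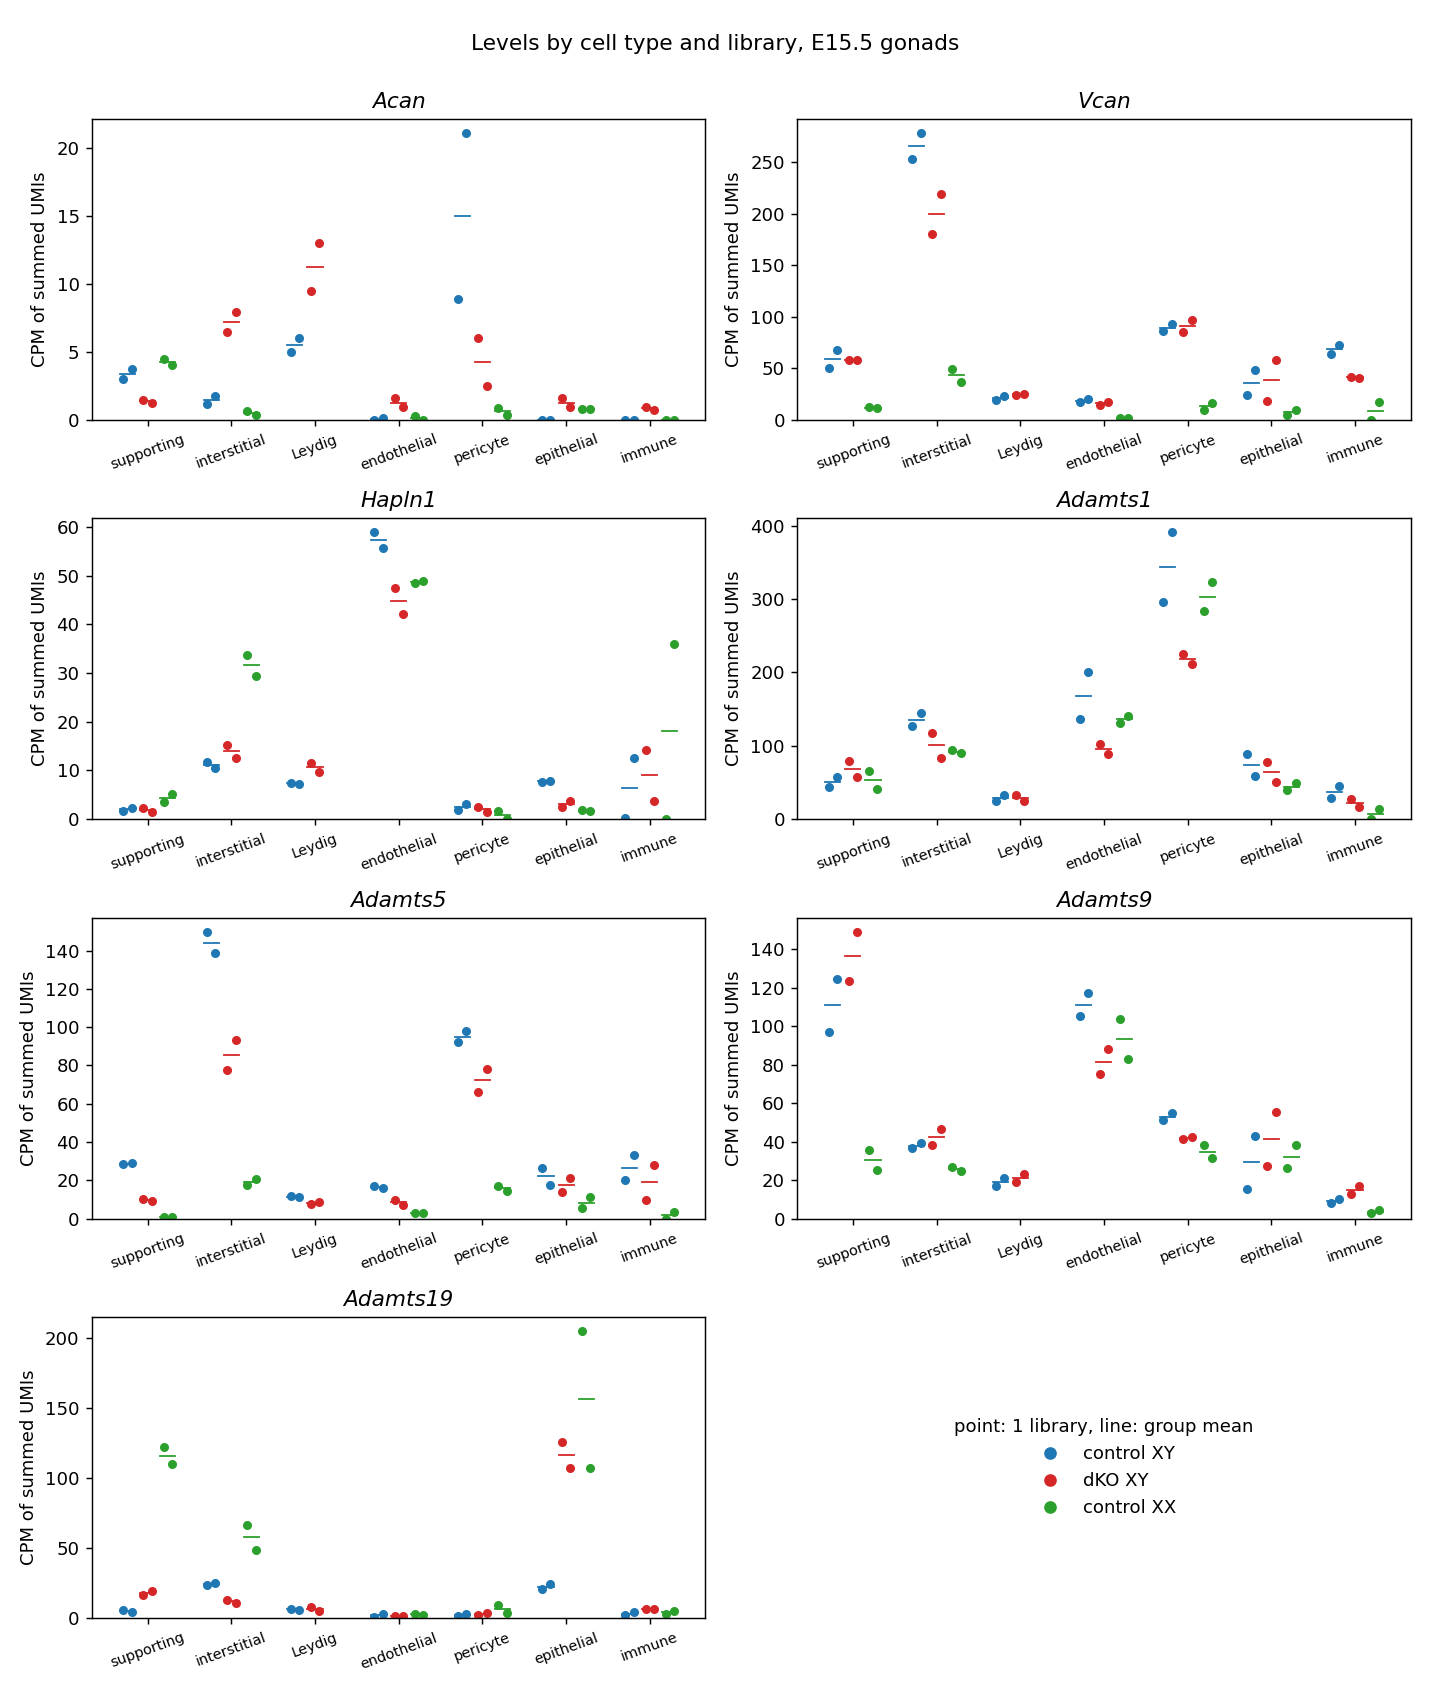
Level of each of the 7 genes (CPM, vertical axis, 1 panel per gene) in each cell type (horizontal axis), with a point for each library, coloured by group, and a line at the mean of each group. *Acan* in interstitial cells is at 6.46 and 7.93 CPM in dKO XY, above the 4 control libraries, and *Adamts19* in supporting cells is at 122 and 110 CPM in control XX, above all XY libraries.

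*Vcan* was most abundant in interstitial cells, at 253 and 278 CPM in control XY, 180 and 219 CPM in dKO XY and 49.6 and 37.0 CPM in control XX. The groups did not overlap, and the log2 fold change of dKO XY over control XY was -0.42 ± 0.13 (SE). Within the *Il33* cluster they did overlap, at 187 and 208 CPM in control XY and 137 and 206 CPM in dKO XY. In supporting cells *Vcan* stood at 49.95 and 68.0 CPM in control XY, 58.1 and 58.1 CPM in dKO XY and 11.9 and 11.4 CPM in control XX. There the dKO XY libraries lay between the control XY libraries and the log2 fold change was -0.02 ± 0.14.

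Supporting cells also carried interstitial transcripts, and more of them in control XY. The 9 interstitial markers summed in supporting cells to 1233 and 1427 CPM in control XY, 788 and 704 CPM in dKO XY and 526 and 735 CPM in control XX. Relative to interstitial cells of the same library, the median marker stood at 0.169 and 0.186 in control XY and 0.131 and 0.116 in dKO XY, and *Vcan* at 0.198 and 0.245 and at 0.322 and 0.265. The study's own step of leaving out supporting cells with *Sycp3* or *Tcf21*, markers of germ and interstitial cells, was followed. Here it used a cutoff on the log-normalized level of each gene, so cells with few UMIs of either could be kept. The *Sycp3* or *Tcf21* cells are those at or above that cutoff. The step kept 200 of 259 and 434 of 539 cells in control XY and 1150 of 1260 and 855 of 922 in dKO XY. It brought the marker sum to 332 and 497 CPM in control XY and 516 and 551 CPM in dKO XY. Without those cells *Vcan* stood at 21.0 and 32.8 CPM in control XY, 53.6 and 53.4 CPM in dKO XY and 11.7 and 10.3 CPM in control XX. Both dKO XY libraries were then above both control XY libraries, and the log2 fold change was 0.94 ± 0.18 (SE). The median interstitial marker was then also higher in dKO XY, at 0.0848 and 0.0932 of its interstitial level against 0.0342 and 0.0589 in control XY, and its part in the higher *Vcan* level was not tested.

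The same direction was seen within Sertoli-like subclusters of these cells. In the main subcluster, led by *Foxq1*, *Cst9* and *Col14a1*, *Vcan* stood at 17.2 and 22.1 CPM in control XY and 49.7 and 53.4 CPM in dKO XY. In the cycling Sertoli-like subcluster it stood at 17.9 and 37.1 CPM against 64.9 and 77.6 CPM. A subcluster led by *Smoc2* and *Cyp11a1* was left unnamed on Sertoli and granulosa markers alone. Over all marker lists it scored as Leydig, with 5 of 6 markers passing. That score compares it with the other supporting cells only, and not with Leydig cells. How many of its cells belong to the cluster led by *Krt79* is not given here. The subcluster held only 12 and 26 control XY cells beside 426 and 448 dKO XY cells. *Vcan* stood there at 72.3 and 88.2 CPM against 53.1 and 45.2 CPM. In that subcluster the order was the opposite, on few control cells.

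*Hapln1*, the link protein gene, was highest in endothelial cells, at 58.8 and 55.6 CPM in control XY, 47.4 and 42.2 CPM in dKO XY and 48.5 and 48.8 CPM in control XX. In interstitial cells it stood at 11.8 and 10.5 CPM in control XY, 15.3 and 12.5 CPM in dKO XY and 33.8 and 29.4 CPM in control XX. Both dKO XY libraries lay between control XY and control XX there, with a log2 fold change of 0.31 ± 0.13 (SE) over control XY. Within the *Sostdc1* cluster the XY groups overlapped, at 11.9 and 10.7 CPM in control XY and 16.4 and 11.88 CPM in dKO XY. Supporting cells had few *Hapln1* UMIs, at 1.73 and 2.28 CPM in control XY, 2.34 and 1.43 CPM in dKO XY and 3.46 and 5.12 CPM in control XX. The XY groups overlapped, and the log2 fold change of -0.11 ± 0.36 turned to 0.86 ± 0.46 without the *Sycp3* or *Tcf21* cells, where the levels of both XY groups were between 0.628 and 1.62 CPM.

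*Adamts5* was highest in interstitial cells. Its level there was 150 and 139 CPM in control XY, 77.8 and 93.4 CPM in dKO XY and 17.4 and 20.7 CPM in control XX, with no overlap between the groups. The log2 fold change of dKO XY over control XY was -0.76 ± 0.13 (SE). The cluster that has *Adamts5* among its leading genes held 3398 and 3961 cells in control XY and 2222 and 1140 in dKO XY, and within it the levels were 179 and 168 CPM against 110 and 137 CPM. In the cycling cluster they were 128 and 114 CPM against 66.7 and 84.7 CPM, and in the *Il33* cluster 30.7 and 58.3 CPM against 27.0 and 31.3 CPM, where the groups overlapped. In supporting cells *Adamts5* stood at 28.4 and 28.9 CPM in control XY, 10.1 and 9.34 CPM in dKO XY and 0.702 and 0.865 CPM in control XX, a log2 fold change of -1.55 ± 0.15 for dKO XY over control XY. Its ratio of supporting to interstitial level, 0.190 and 0.209 in control XY and 0.130 and 0.100 in dKO XY, lay close to that of the median interstitial marker. Without the *Sycp3* or *Tcf21* cells the supporting levels were 7.78 and 8.32 CPM against 5.14 and 6.20 CPM, and the log2 fold change was -0.53 ± 0.23. Among the subclusters of these cells, both dKO XY libraries were below both control XY libraries in the main Sertoli-like one, at 8.30 and 7.06 CPM in control XY against 4.12 and 1.25 CPM in dKO XY. They were also lower in the unnamed one led by *Smoc2* and *Cyp11a1*, at 24.9 and 57.6 CPM against 7.55 and 8.86 CPM, on few control cells. In the cycling Sertoli-like subcluster *Adamts5* was not lower, at 4.16 and 5.26 CPM in control XY against 4.17 and 7.11 CPM in dKO XY.

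**Figure D2:**
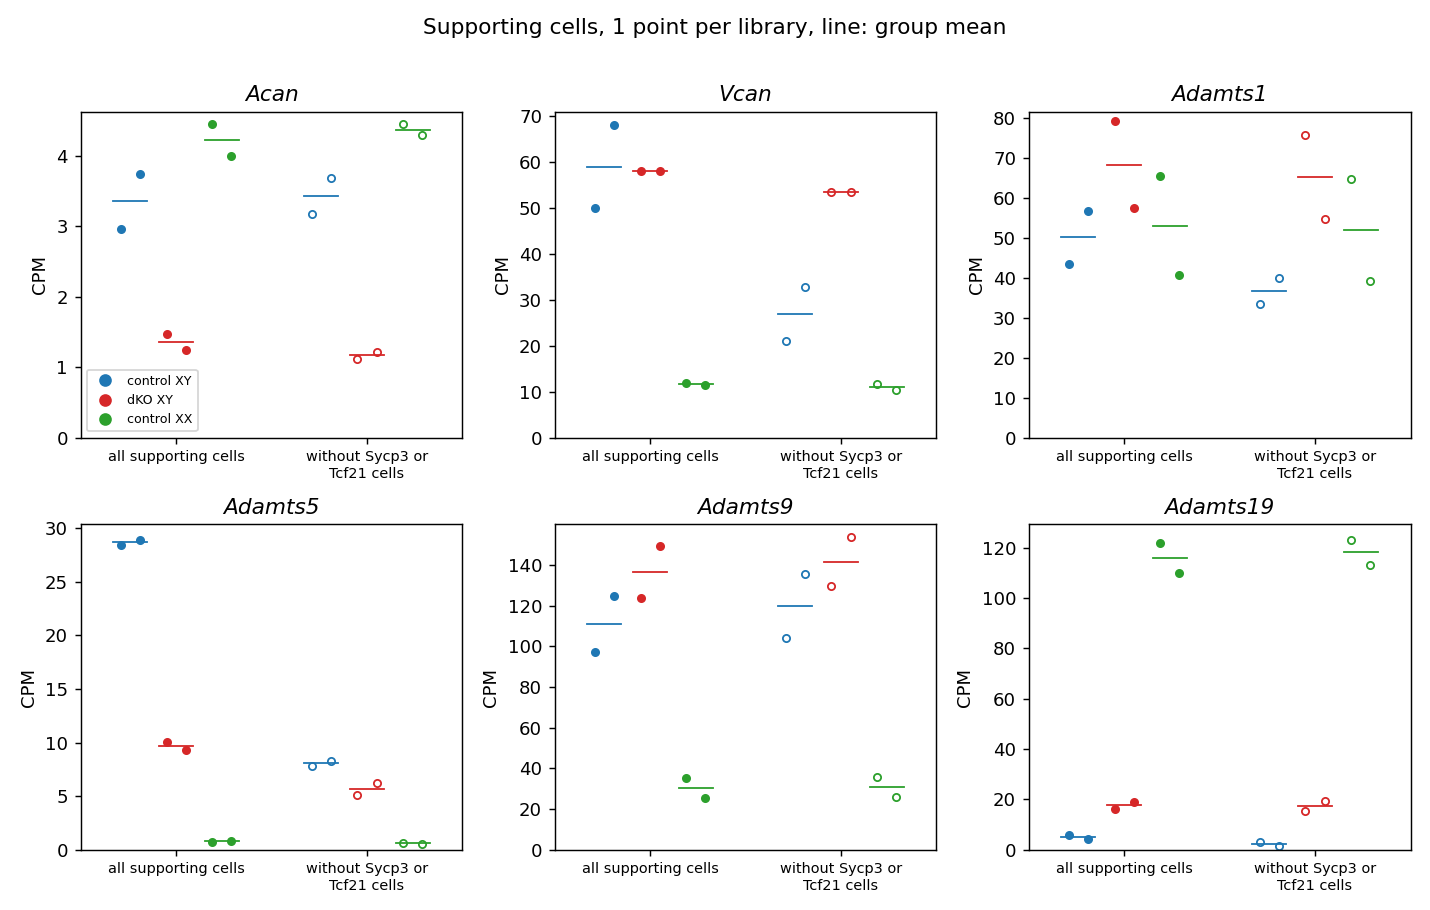
Level of 6 members in supporting cells (CPM, vertical axis), in all supporting cells and without the cells at or above the cutoff for *Sycp3* or *Tcf21*, with a point for each library, coloured by group. *Vcan* in control XY drops from 49.95 and 68.0 to 21.0 and 32.8 CPM while dKO XY stays above 53 CPM, and *Adamts5* in control XY drops from 28.4 and 28.9 to 7.78 and 8.32 CPM.

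*Adamts1* was highest in pericytes, the mural cells of vessels, at 296 and 391 CPM in control XY, 225 and 212 CPM in dKO XY and 284 and 323 CPM in control XX. In interstitial cells it stood at 127 and 144 CPM in control XY, 118 and 83.3 CPM in dKO XY and 93.9 and 89.6 CPM in control XX. Both dKO XY libraries lay below both control XY libraries, with a log2 fold change of -0.43 ± 0.17 (SE). Within the *Il33* cluster the XY groups overlapped, at 165 and 170 CPM in control XY and 199 and 148 CPM in dKO XY. In supporting cells the order was the opposite, at 43.4 and 56.8 CPM in control XY, 79.1 and 57.5 CPM in dKO XY and 65.4 and 40.6 CPM in control XX. The second dKO XY library was above the second control XY library by less than 1 CPM, and the log2 fold change was 0.45 ± 0.24, or 0.22 without the first dKO XY library. The supporting levels lay further apart without the *Sycp3* or *Tcf21* cells, at 33.3 and 40.0 CPM in control XY against 75.8 and 54.8 CPM in dKO XY, a log2 fold change of 0.80 ± 0.23. Within the Sertoli-like cluster the XY groups overlapped, at 38.1 and 54.8 CPM in control XY and 61.3 and 32.9 CPM in dKO XY. The cluster led by *Krt79*, which was larger in dKO XY, had 118 and 130 CPM of *Adamts1* in control XY and 121 and 88.1 CPM in dKO XY.

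*Adamts9* was higher in Sertoli-like than in interstitial cells of the same libraries. Supporting cells had 97.2 and 125 CPM in control XY, 124 and 149 CPM in dKO XY and 35.4 and 25.2 CPM in control XX. The XY groups overlapped and the log2 fold change was 0.31 ± 0.19 (SE). In the Sertoli-like cluster alone they did not, at 101 and 126 CPM in control XY and 155 and 196 CPM in dKO XY, while the granulosa-like cells of dKO XY had 29.4 and 52.5 CPM. Interstitial cells had 36.4 and 39.4 CPM in control XY, 38.3 and 46.3 CPM in dKO XY and 26.6 and 24.5 CPM in control XX, with a log2 fold change of 0.15 ± 0.11 and overlapping XY groups. The change in supporting cells minus that in interstitial cells was 0.12 ± 0.10.

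*Adamts19* (chr18:58836667-59054060 of GRCm38, plus strand) had the opposite contrast to *Acan*. In supporting cells it stood at 5.94 and 4.18 CPM in control XY, 16.2 and 19.2 CPM in dKO XY and 122 and 110 CPM in control XX, with no overlap between the groups. The log2 fold change of dKO XY over control XY was 1.87 ± 0.19 (SE). In interstitial cells it stood at 23.5 and 25.3 CPM in control XY, 12.6 and 11 CPM in dKO XY and 66.6 and 48.8 CPM in control XX. There both dKO XY libraries were the lowest of the 6, with a log2 fold change of -1.06 ± 0.14. The change in supporting cells minus that in interstitial cells was 2.89 ± 0.22. Without the *Sycp3* or *Tcf21* cells the supporting levels were 3.18 and 1.49 CPM in control XY against 15.4 and 19.4 CPM in dKO XY, a log2 fold change of 3.03 ± 0.27.

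The supporting cells of the dKO were not uniform for *Adamts19*. In their granulosa-like cluster, 75 and 26 cells, it reached 98.5 and 104 CPM, beside 122 and 110 CPM in the granulosa-like cells of control XX. In the cluster led by *Krt79* it stood at 25.2 and 30.4 CPM. In their Sertoli-like cluster it stood at 5.27 and 6.14 CPM, against 5.16 and 4.29 CPM in control XY, so all 4 libraries lay between 4.29 and 6.14 CPM. Without the *Sycp3* or *Tcf21* cells it stood at 3.15 and 1.27 CPM against 3.51 and 6.34 CPM in the main Sertoli-like subcluster and at 0.416 and 1.05 CPM against 5.84 and 4.79 CPM in the cycling one. In the interstitium the lower level was seen in all 3 clusters, at 25.7 and 27.7 CPM in control XY against 13.8 and 9.13 CPM in dKO XY in the *Sostdc1* cluster, 21.3 and 22.4 CPM against 10.6 and 11.1 CPM in the cycling cluster, and 19.7 and 27.5 CPM against 16.5 and 15.7 CPM in the *Il33* cluster.

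**Figure D3:**
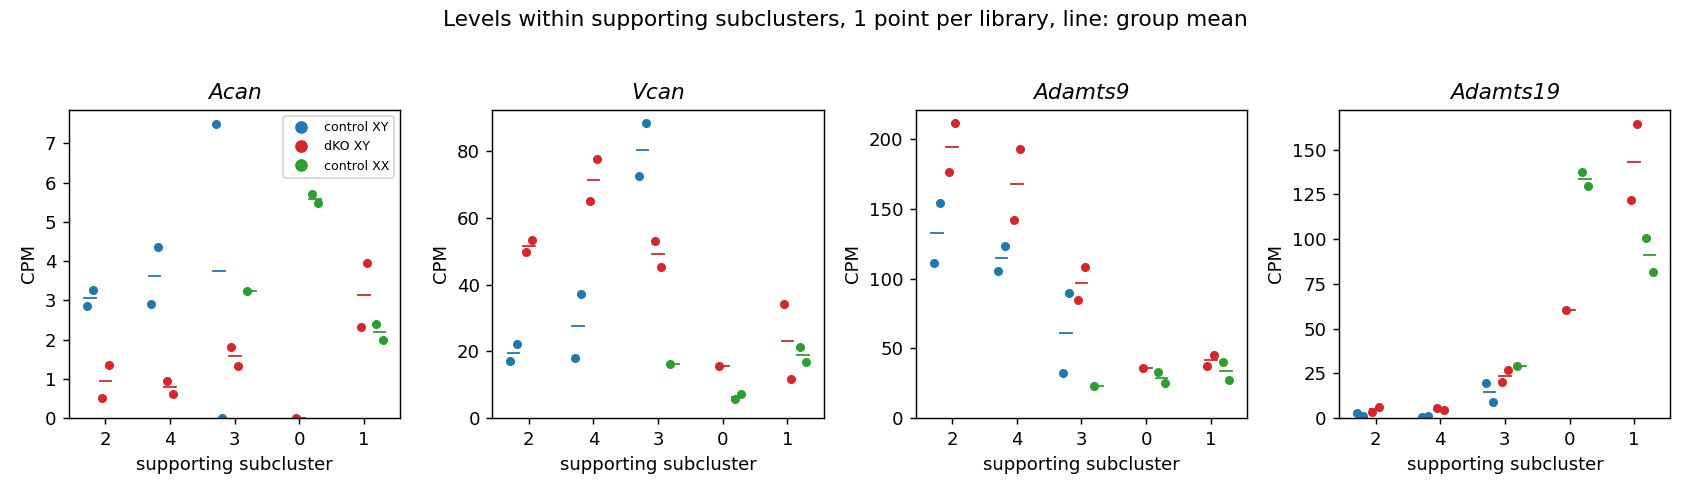
Level of *Acan*, *Vcan*, *Adamts9* and *Adamts19* (CPM, vertical axis) in the 5 subclusters of supporting cells (horizontal axis), with a point for each library with at least 10 cells, coloured by group. The order runs from the Sertoli-like to the granulosa-like subclusters, as named on Sertoli and granulosa markers alone. Subcluster 3 was unnamed on those markers, and its place in the middle was set by hand. Over all marker lists, against the other supporting cells, subcluster 3 scored as Leydig and subcluster 1 as erythroid. *Vcan* in the main Sertoli-like subcluster is at 49.7 and 53.4 CPM in dKO XY, above 17.2 and 22.1 CPM in control XY, and *Adamts19* is above 80 CPM only in the 2 subclusters made up mostly of control XX cells.

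Side by side, 3 members had opposite signs in both cell types with no overlap of the XY libraries in either, *Acan*, *Adamts1* and *Adamts19*, and *Adamts5* was lower in both in the sums of all cells. Opposite directions with no overlap in either cell type were seen for 11.6% of all 17088 genes, where 56.5% had no overlap in supporting cells and 55.4% in interstitial cells. *Vcan* and *Hapln1* were without a clear direction in all supporting cells and *Adamts9* in both cell types. In supporting cells 10.3% of the 15875 genes tested were called higher in dKO XY and 7.14% lower, and in interstitial cells 4.13% and 2.81% of 16968. The difference between the cell types was called higher in supporting cells for 8.97% and lower for 12.4% of 17088 genes. Without the *Sycp3* or *Tcf21* cells the change in supporting minus that in interstitial cells went from 0.37 to 1.39 for *Vcan*, from -0.52 to 0.53 for *Hapln1* and from -0.84 to 0.21 for *Adamts5*, with a change of sign for *Hapln1* and *Adamts5*. It also grew for *Adamts19*, from 2.89 to 4.10, and for *Adamts1*, from 0.85 to 1.25, went from -3.60 to -3.83 for *Acan*, and moved little for *Adamts9*, from 0.12 to 0.08. Nothing is read from the members' counts against these shares, since this contrast chose them.

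**Figure D4:**
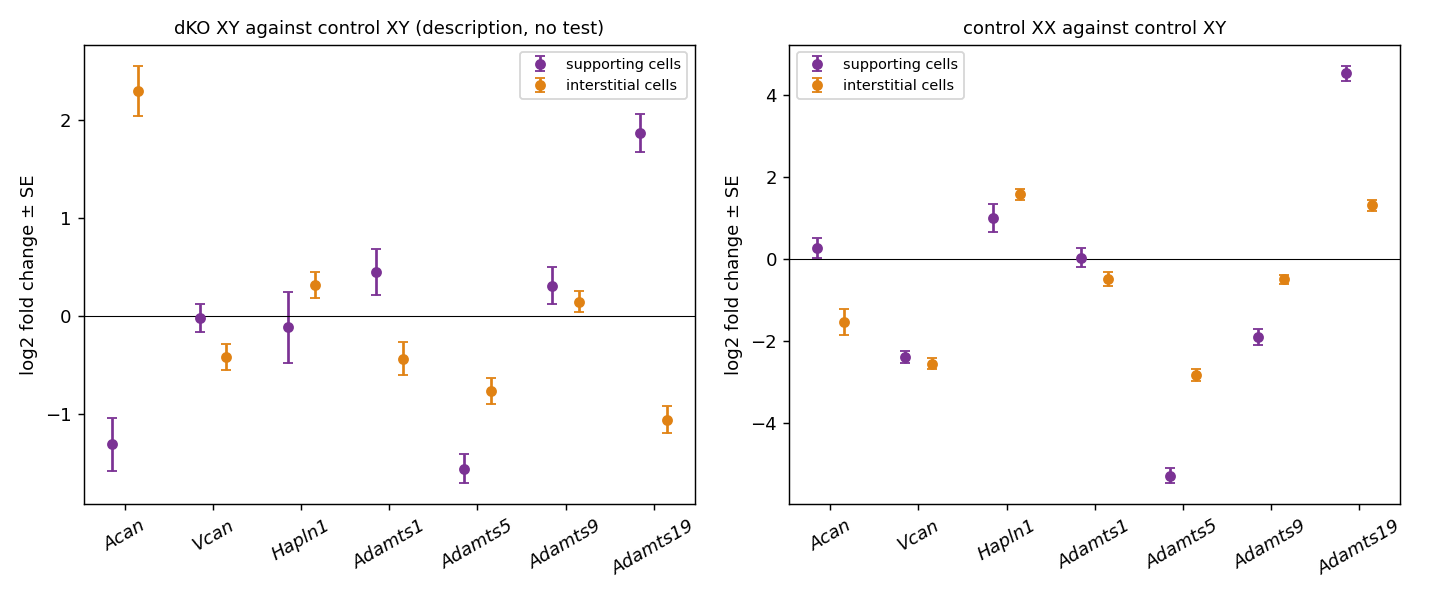
Log2 fold change in supporting cells and in interstitial cells for each member, dKO XY over control XY on the left and control XX over control XY on the right, with bars of 1 SE (n = 2 libraries per group). *Acan* is at -1.31 in supporting and 2.29 in interstitial cells of the dKO, and *Adamts19* at 1.87 and -1.06.

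The other genes of the matrix system, 127 in 7 lists, were tested in the same fits. In dKO XY supporting cells 17 rose and 18 fell of the 109 that could be tested, where 10.3% of all 15875 genes were called higher and 7.14% lower. Their median log2 fold change was -0.07 against 0.01 for all genes tested. Chondroitin sulphate synthesis had 2 genes higher and 1 lower of 22, other proteoglycans 5 and 6 of 27, matrix partners of the lecticans 3 and 4 of 13, and hyaluronan, lectican and link protein genes 2 and 3 of 15. Other ADAMTS proteases had 1 and 2 of 14, ADAMTS-like proteins 2 and 0 of 6, and inhibitors, convertases and clearance receptors 2 and 2 of 12. Without the second control XY library 19 were called in place of 35. The control XY cells also carried more interstitial transcripts, as given for *Vcan*. Without the *Sycp3* or *Tcf21* cells 16 of the 17 that rose and 9 of the 18 that fell were called again. The genes lost included *Dcn*, *Fbln1*, *Fn1*, *Itih5* and *Timp2*. In that setting 38 were called in all, 26 higher and 12 lower, so the near balance of directions was not kept.

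Among the genes that rose in dKO XY supporting cells, *Csgalnact1*, which starts the chondroitin sulphate chain, went from 1.11 and 1.02 CPM in control XY to 10.4 and 14.3 CPM, beside 81.6 and 70.7 CPM in control XX (log2 fold change 3.57 ± 0.27, adjusted p = 3.53e-05). *Pcsk6*, a proprotein convertase, went from 17.2 and 17.4 CPM to 80.5 and 123 CPM (2.57 ± 0.26, adjusted p = 0.000164). *Fbln2*, a fibulin that binds the C-terminal end of lecticans, went from 81.7 and 121 CPM to 287 and 297 CPM (1.53 ± 0.17, adjusted p = 0.00028), and stood at 4.94 and 4.56 CPM in control XX. For *Csgalnact1* and *Pcsk6* the dKO XY level lay toward or at that of the ovary, and for *Fbln2* it lay on the other side. *Smoc1* (1.63 ± 0.14, adjusted p = 6.37e-05), *Timp1*, a metalloprotease inhibitor (0.71 ± 0.13, adjusted p = 0.00493), and *Col18a1* (1.03 ± 0.23, adjusted p = 0.0122), a heparan sulphate proteoglycan collagen of basement membranes, rose as well. *Thbs1*, *Matn2* and *Gpc3* also passed the test. These 3 and *Col18a1* each lost the call when 1 library or another was left out, *Col18a1* without the first control XY library (adjusted p = 0.0866).

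Among the genes that fell, brevican (*Bcan*), the lectican best known from brain, went from 66.2 and 76.8 CPM to 17.4 and 13.4 CPM, with 1.498 and 0.632 CPM in control XX (-2.21 ± 0.24, adjusted p = 0.000214). *Spock2*, a testican proteoglycan, went from 80.7 and 82.3 CPM to 14.5 and 11.3 CPM (-2.65 ± 0.15, adjusted p = 6.11e-06). *Fbn1*, fibrillin-1, fell from 77.9 and 82.6 CPM to 38.5 and 35.2 CPM (-1.11 ± 0.12, adjusted p = 0.000253), *Gpc1* from 70.0 and 90.4 CPM to 38.4 and 33.3 CPM (-1.16 ± 0.14, adjusted p = 0.000488) and *Adamts2*, a procollagen protease, from 30.3 and 32.2 CPM to 17.4 and 17.8 CPM (-0.82 ± 0.13, adjusted p = 0.0021). *Xylt1*, the xylosyltransferase that attaches the first sugar of the chain, fell by less (-0.47 ± 0.14, adjusted p = 0.0468), a call lost without any of the 4 XY libraries. Among the lecticans in supporting cells, *Bcan* thus fell by the test. *Acan*, untested here, was lower in both dKO XY libraries. *Vcan*, untested as well, had no clear direction in all supporting cells and was higher in dKO XY without the *Sycp3* or *Tcf21* cells.

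In dKO XY interstitial cells 10 of 119 list genes rose and 8 fell, where 4.13% of all 16968 genes were called higher and 2.81% lower. Their median log2 fold change was -0.12 against -0.01 for all genes tested. The inhibitor and convertase list had 4 genes higher and 0 lower of 12, other proteoglycans 4 and 5 of 28, and other ADAMTS proteases 0 and 0 of 14, of which 5 had an unadjusted p under 0.05 in edgeR, as did 21.3% of all genes tested. *Pcsk6* (1.10 ± 0.20, adjusted p = 0.0183) and *Col18a1* (1.38 ± 0.29, adjusted p = 0.0314) rose here as in supporting cells. *Itih5*, an inter-alpha-trypsin inhibitor heavy chain of the kind that binds hyaluronan, went from 259 and 237 CPM to 130 and 139 CPM (-0.89 ± 0.11, adjusted p = 0.00481), and *Cspg5* from 28.3 and 25.4 CPM to 14.0 and 10.8 CPM (-1.12 ± 0.19, adjusted p = 0.0136). *Dcn*, decorin, fell from 1023 and 966 CPM to 628 and 498 CPM (-0.83 ± 0.16, adjusted p = 0.0205). *Sdc1*, syndecan-1, fell from 106 and 103 CPM to 66.3 and 72.3 CPM (-0.60 ± 0.08, adjusted p = 0.00753). Of these 6 genes, *Itih5* alone was called without each library in turn, and the count was sensitive to single libraries, with 4 called without the first control XY library, 5 without the second and 8 without the second dKO XY library. The difference between the cell types was called for 49 of 118 list genes, 21 higher and 28 lower in supporting cells. Of all 17088 genes 8.97% were called higher and 12.4% lower. Fewer list genes were called without the second control XY library.

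Between control XX and control XY, a contrast that did not choose the members but shares the control XY libraries with the one that did, 5 of the 7 members were called in supporting cells, 2 higher and 3 lower, where 25.2% of all genes were called higher and 23.9% lower. *Adamts19* was higher in the ovary by 4.52 ± 0.19 on the log2 scale (adjusted p = 1.19e-07) and *Adamts5* lower by -5.29 ± 0.19 (adjusted p = 4.42e-08). *Vcan* was lower (-2.40 ± 0.15, adjusted p = 1.31e-06) and so was *Adamts9* (-1.92 ± 0.20, adjusted p = 2.76e-05). *Hapln1* was higher (0.99 ± 0.34, adjusted p = 0.0367), but not when either control XY library or the second control XX library was left out, with adjusted p of 0.148, 0.0876 and 0.167. *Acan* (0.26 ± 0.25, adjusted p = 0.419) and *Adamts1* (0.03 ± 0.23, adjusted p = 0.932) were not called. Without the *Sycp3* or *Tcf21* cells the log2 fold changes of *Vcan*, *Adamts5* and *Hapln1* were -1.39, -3.80 and 2.08.

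In interstitial cells 6 of 7 members were called between control XX and control XY, 2 higher and 4 lower, where 12% of all genes were called higher and 13.3% lower. *Hapln1* (1.57 ± 0.14, adjusted p = 0.000113) and *Adamts19* (1.30 ± 0.14, adjusted p = 0.000347) were higher in the ovary. *Adamts5* (-2.84 ± 0.14, adjusted p = 8.84e-06), *Vcan* (-2.56 ± 0.14, adjusted p = 1.34e-05), *Acan* (-1.54 ± 0.32, adjusted p = 0.00998) and *Adamts9* (-0.51 ± 0.11, adjusted p = 0.0108) were lower. The call of *Acan* was lost without the second control XX library (adjusted p = 0.0997) and that of *Adamts9* without the second control XY library (adjusted p = 0.104). *Adamts1* (-0.50 ± 0.17, adjusted p = 0.0635) just missed the threshold, and was called under 5 of the 12 alternatives run. Within the *Il33* cluster, which both sexes share, *Hapln1* stood at 4.49 and 5.33 CPM in control XY against 34.0 and 29.4 CPM in control XX, *Vcan* at 187 and 208 CPM against 49.7 and 37.1 CPM, *Adamts9* at 93.7 and 97.8 CPM against 26.5 and 24.6 CPM, and *Adamts5* at 30.7 and 58.3 CPM against 16.9 and 20.7 CPM. The levels of *Acan* overlapped there, at 0.449 and 1.72 CPM against 0.648 and 0.363 CPM.

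In interstitial cells the dKO XY levels of *Vcan*, *Hapln1* and *Adamts5* lay between the control groups. *Acan* and *Adamts19* lay outside the range of both controls there, *Acan* above and *Adamts19* below. The share of all genes with either order is not given here. The contrast that chose the members is part of these values, so nothing is read from them as a set.

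Among the list genes in supporting cells, 25 were higher and 40 lower of 109 in control XX, where 25.2% and 23.9% of all genes were called, with a median log2 fold change of -0.19 against 0.03 for all genes tested. Hyaluronan, lectican and link protein genes had 3 higher and 8 lower of 15, other ADAMTS proteases 2 and 7 of 14, other proteoglycans 3 and 13 of 27, and inhibitors and convertases 7 and 1 of 12. *Csgalnact1* (6.12 ± 0.25, adjusted p = 1.01e-07) and thrombospondin-2 (*Thbs2*, 5.00 ± 0.22, adjusted p = 1.36e-07) were far higher in the ovary. *Bcan* (-5.96 ± 0.29, adjusted p = 2.6e-07), *Smoc2* (-5.94 ± 0.38, adjusted p = 1.24e-06), *Fbln2* (-4.47 ± 0.20, adjusted p = 1.41e-07) and *Spock2* (-4.12 ± 0.16, adjusted p = 6.18e-08) were far lower. Of the 65 calls, 53 were made again without the *Sycp3* or *Tcf21* cells. In that setting 64 were called in all, 34 higher and 30 lower, so the excess of lower genes was not kept. In interstitial cells 19 were higher and 38 lower of 119, beside 12% and 13.3% of all genes, with a median of -0.12 against 0.00 for all genes tested. There *Gpc4*, glypican-4 (1.94 ± 0.09, adjusted p = 6.04e-06), and *Chst15*, a chondroitin sulphotransferase (1.45 ± 0.18, adjusted p = 0.000721), were higher in the ovary, and *Smoc2* (-3.82 ± 0.32, adjusted p = 9.79e-05), *Chsy1*, a chondroitin synthase (-1.84 ± 0.16, adjusted p = 0.000133), and *Gpc6* (-1.72 ± 0.10, adjusted p = 1.59e-05) were lower.

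Leydig cells, the androgen-producing cells found in the XY gonads alone, were tested for dKO XY against control XY. This cell type did not choose the members, but it shares libraries and group contrast with the cells that did. The test is thus not independent of that choice. *Acan* stood at 5.01 and 6.03 CPM in control XY and 9.45 and 13.02 CPM in dKO XY and rose (0.99 ± 0.18, adjusted p = 0.0139), a call made under all 11 alternatives run. The part in this value of the low *Acan* counts seen across other dKO XY cell types was not tested. *Adamts5* went from 11.8 and 11.04 CPM to 7.81 and 8.55 CPM and was called lower (-0.51 ± 0.12, adjusted p = 0.0415). That call was lost without either control XY library (adjusted p = 0.261 and 0.0826), and without the 8% of cells with the highest doublet scores the value was 0.21 (adjusted p = 0.531). *Vcan*, at 18.9 and 23.2 CPM against 24.3 and 24.8 CPM, and *Hapln1*, at 7.51 and 7.24 CPM against 11.5 and 9.71 CPM (0.49, adjusted p = 0.0739), were not called. Without the top doublet scores both were called higher in edgeR, *Vcan* at 0.83 (adjusted p = 0.00806) and *Hapln1* at 0.65 (adjusted p = 0.0248). Under most of the other alternatives they were not called. In the main fit 1 member was thus called higher and 1 lower of 7, where 5.32% of 14466 genes were called higher and 2.98% lower. Of 107 other list genes, 13 rose and 7 fell. Among those whose mean log2 CPM reached 4, the largest changes were those of *Fbn2* (0.98 ± 0.11, adjusted p = 0.00242) and *Gpc3* (0.95 ± 0.09, adjusted p = 0.00179) upward and *Spock2* (-0.90 ± 0.12, adjusted p = 0.00515) and *Cspg5* (-0.59 ± 0.11, adjusted p = 0.0154) downward.

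Coelomic epithelial cells, which cover the gonad, had *Adamts19* at 20.6 and 24.3 CPM in control XY, 126 and 107 CPM in dKO XY and 205 and 107 CPM in control XX. The dKO XY libraries lay above control XY and overlapped control XX, and *Adamts19* rose by the test (2.38 ± 0.32, adjusted p = 0.00347), a call made under all 12 alternatives. It was the 1 member called of 6 tested, where 6.73% of 13005 genes were called in either direction. Control XY contributed 30 and 44 of these cells, dKO XY 190 and 297. Of 98 list genes 5 rose and 12 fell, among them *Sdc4* (1.38 ± 0.26, adjusted p = 0.0106) and *Fmod* (-2.36 ± 0.24, adjusted p = 0.00112), and leaving out any 1 of the 4 XY libraries left between 3 and 5 calls.

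In the vessels edgeR called 0 members between dKO XY and control XY. Pericytes had *Acan* at 8.87 and 21.1 CPM in control XY, 6.03 and 2.46 CPM in dKO XY and 0.852 and 0.363 CPM in control XX (dKO XY over control XY -1.81 ± 0.41, adjusted p = 0.122), the opposite order to the interstitial cells. This value was -2.26 without the first control XY library, where it became a call, and -1.04 without the second, where it did not. The 7 members tested there included 4 with an unadjusted p under 0.05, as 5.87% of 11952 genes had, and 0.293% of all genes were called. Endothelial *Adamts1* stood at 136 and 201 CPM in control XY, 102 and 88.1 CPM in dKO XY and 131 and 141 CPM in control XX (-0.81 ± 0.18, adjusted p = 0.087), with 4 of 6 members and 8.7% of 12048 genes at an unadjusted p under 0.05, and 0.531% of all genes called. DESeq2 called 1 endothelial member, *Adamts1* (adjusted p = 0.00761), and 0 in pericytes and immune cells. In immune cells 0 of 6 members were called, 1 had an unadjusted p under 0.05, as 7.47% of 11298 genes had, and 0.00885% of all genes were called. Of the list genes, 3 of 88 fell in endothelial cells, including *Fbln2* (-1.56 ± 0.19, adjusted p = 0.00291), and 1 of them was called without either control XY library. *Fbln2* thus rose in supporting and fell in endothelial cells of the dKO, a difference that was not itself tested. In pericytes 0 of 89 and in immune cells 0 of 76 were called, with 17 and 21 at an unadjusted p under 0.05, beside the 5.87% and 7.47% of all genes. Germ cells of control XY numbered 17 and 7, and no test was made in them.

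Over 48 sums of a library and a cell type with at least 10 cells, the genes whose level was most like each member were ranked by Pearson's r of log2(CPM + 1) among 10737 genes. The sums share libraries and cell types, so r is a description. *Acan* was most like *Zwint* (r = 0.803), *Grb14* (0.768) and *Cpa1* (0.751). *Vcan* was most like *RP24-366J14.1* (0.921), *Hsd11b2* (0.889) and *Fat3* (0.885), and *Hapln1* most like *Cd34* (0.758), *Insr* (0.754) and *Tmem255a* (0.752). *Adamts1* went with *Nrep* (0.913), *Tead2* (0.903) and *Mmp14* (0.899), and its neighbour *Adamts5* with *Efna5* (0.945), *Colec11* (0.928) and *Cxcl12* (0.923). *Adamts9* was most like *Prkce* (0.926), *Hoxb9* (0.922) and *Cdr2l* (0.909), and *Adamts19* most like *Gabra4* (0.932) and, among its nearest 3, *E330013P04Rik* (0.916).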

How the data were processed

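The deposited files hold raw UMI counts of each library, by gene symbol and barcode, which the authors made with Cell Ranger against mm10 with a correction for barcode swapping and without normalization; Seurat 4.0 is also named in the submitters' processing notes. The annotation release and the use of strand are not given in the sources used here. Of 68064 barcodes, 39350 with more than 2500 and fewer than 9000 genes, under 25% mitochondrial and under 20% *Hbb* UMIs were kept. Cells were clustered with Seurat 5.3.0 (3000 variable genes less 45 that are members or list genes, 20 dimensions, resolution 0.21) and clusters were named from marker lists. Supporting cells without *Sycp3* or *Tcf21* were clustered again (8 dimensions, resolution 0.25). Scrublet, as in scanpy 1.11.5, marked between 0 and 71 cells per library and so did not work as a caller; in an alternative, the top 8% of cells by score were dropped.

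For each library, the UMIs of a cell type with at least 10 cells were added up and tested with edgeR 4.0.16 in R 4.3.3 (filterByExpr, TMM, glmQLFit and glmQLFTest, group as the only factor, all libraries in the fit), with Benjamini-Hochberg adjustment over all genes tested and calls under 0.05. SE is the log2 fold change over the square root of F. The difference between cell types was fitted over the 4 XY libraries with library as a factor. P-values measure the spread between 2 libraries per group, which the study calls biological replicates. The 2 libraries of each group differed beyond sampling noise. The totals of the libraries' cells were 118475468 to 221675316 UMIs. The test was checked on simulated data with known changes.

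The members and lists were chosen with earlier results of these data known. Named are the members and, per list and direction in supporting and interstitial cells, up to 3 called genes with the largest change among those whose mean log2 CPM reached 4, and up to 2 over all lists in other cell types; further genes are named as the leading genes of clusters or as lost calls, and *Hapln3*, a list gene below that level, as the neighbour of *Acan*, chosen after its values were seen. Of the list symbols, *Cemip2* was read as *Tmem2* and Adamtsl6, another name of *Thsd4*, was dropped. Alternatives were DESeq2 1.42.0 and its size factors, no filter, all variable genes, a replicate block, a fit of only the 2 groups, more than 1500 genes, thinning to 5000 UMIs, no top doublet scores, each library left out, and, for supporting cells, no *Sycp3* or *Tcf21* cells. Promoter windows were searched as exact letters on both strands. Erythroid cells, few in every library, were not tested.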

Additional observations from a re-analysis of the deposited data

Results flagged for a closer look

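In the sums of all cells, every library of the dKO moved one way in supporting cells and the opposite way in interstitial cells for 3 members, against both control XY libraries, as did 11.6% of all 17088 genes. The change in supporting cells minus that in interstitial cells was -3.60 for *Acan*, 0.85 for *Adamts1* and 2.89 for *Adamts19* on the log2 scale. It was -3.83, 1.25 and 4.10 without the *Sycp3* or *Tcf21* cells. This contrast chose the members, so the difference was not tested. For *Adamts1* the second libraries lay close in all supporting cells, with 57.5 CPM for dKO XY and 56.8 CPM for control XY. When the *Sycp3* or *Tcf21* cells were left out, control XY had 33.3 and 40.0 CPM and dKO XY had 75.8 and 54.8 CPM.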

How the results depend on the processing

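Of 3929 values of single genes refitted under alternatives, 3404 kept direction and side of the threshold or, untested, moved within 1 SE, 101 were called in neither fit and changed sign, 4 untested ones changed sign within 1 SE, 246 lost a call, 107 gained one, 55 untested values moved beyond 1 SE, 10 of them with a change of sign, and 12 reversed. Of 42 values of members within clusters or subclusters, outside that count, 29 moved beyond 1 SE, and all 84 shares of cells with a UMI were lower when thinned, as fewer UMIs give. Without *Sycp3* or *Tcf21* cells, *Fn1* (0.42, adjusted p = 0.168) and *Thbs2* (1.62, adjusted p = 0.00791) reversed in dKO XY supporting cells, *Chsy1* (0.072) and *Matn2* (1.09) in control XX supporting cells, and *Dcn* (0.29), *Fbln1* (0.40), *Fn1* (0.72) and *Itih5* (0.64) in the difference between cell types. With more than 1500 genes per cell *Matn2* (0.53), and in the difference *Fn1* (0.17) and *Itih5* (0.087), reversed. Without top doublet scores *Adamts5* in Leydig cells was 0.21. The causes were not tested. List genes called in dKO XY interstitial cells were 18, 28 with DESeq2, 29 without a filter and 7 with the replicate block; in Leydig cells 20, 35 without a filter, 34 with the block and 32 without top doublets; in endothelial cells 3, and 10 without a filter; in pericytes 0, 4 without a filter and 3 with only the 2 groups; in immune cells 0, 9 without a filter and 6 without top doublets; in epithelial cells 17, 33 without a filter and 28 with only the 2 groups. Members called in Leydig cells were 2, and 1 with DESeq2; in endothelial cells 0, 1 with DESeq2, 2 without a filter and 1 without top doublets; in pericytes 0 and in immune cells 0, with 2 and 1 without a filter. Leaving out 1 library gave 19 to 32 list genes in dKO XY supporting cells, 4 to 16 in interstitial, 18 to 29 in Leydig, 1 to 3 in endothelial, 0 to 1 in pericytes, 3 to 5 in epithelial cells and 31 to 49 for the difference, and 45 to 61 and 39 to 53 for control XX in supporting and interstitial cells. Members called were then 4 to 5 and 5 to 6 for control XX, 1 to 3 in Leydig cells, 0 to 1 in endothelial cells and 0 to 1 in pericytes. A lone library was assumed to vary like the other groups.

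Whether libraries were prepared in pairs is not given in the sources used here, and the main fits did not pair them. Deviations of same-numbered control XY and dKO XY libraries correlated at 0.137 in supporting and 0.142 in interstitial cells. Those of control XY and control XX correlated at -0.229 and -0.320, and those of dKO XY and control XX at -0.313 and -0.349. These values do not settle whether libraries share a batch. The replicate block gave 31 list genes in dKO XY supporting, 64 and 47 in control XX supporting and interstitial and 23 in epithelial cells. Depth limits *Acan*, with 24 and 59 UMIs in control XY supporting cells, and *Hapln1*, with 14 and 36.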
